A study of Mus musculus with 8 samples.

Results

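The genes described here encode the machinery that brings proteins into mitochondria and folds them there. They were chosen by name: every gene whose symbol in the array annotation begins with Tomm or Timm, and 11 further genes given singly. One probe set was used per gene, the brightest of those that name a single gene. This gave 36 genes, 10 with the Tomm prefix, 15 with the Timm prefix and 11 others, out of 19938 genes measured. Liver RNA came from 8 adult male mice, 1 array per mouse, after a fast of 16 h and free feeding for 3 h. The 4 controls are labelled wild type, and the labels do not say whether they carried a floxed allele or Cre. The other 4 are labelled as having Rictor deleted in the liver by albumin-Cre acting on a floxed allele. Albumin-Cre acts in hepatocytes, and which other cells of the liver keep the gene was not examined. Rictor is a subunit of mTOR complex 2, a kinase complex that activates Akt in response to insulin. The design holds a single comparison, between the labelled genotypes in the refed state.

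Nearly all mitochondrial proteins are encoded in the nucleus and made in the cytosol. The TOM complex of the outer membrane receives them, TIM23 threads those with a cleavable presequence into the matrix, small Tim proteins and TIM22 guide carriers to the inner membrane, and the SAM complex builds beta-barrel proteins into the outer membrane. In the matrix, the Hsp70 protein mortalin pulls the chain in, a peptidase cuts the presequence off, and the chaperonin made of Hsp60 and Hsp10 folds the product. Hepatocytes are rich in mitochondria, which in liver oxidise fatty acids and host parts of urea synthesis and gluconeogenesis.

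The promoters of 3 of these genes are shown. Tomm20 and Tomm70a are receptor genes whose groups did not overlap, and the window of Hspe1 overlaps that of a start of Hspd1. Each window runs from 250 bases before to 50 bases after the annotated start of transcription, 5′ to 3′ on the strand of the gene, from RefSeq. Capitals mark motif matches. In Hspe1 they are a heat shock element core, in Tomm20 an E-box and then an NRF1 motif, and in Tomm70a a GABPA motif.
Hspe1, GRCm38.p6 chr1:55087898-55088197, plus strand: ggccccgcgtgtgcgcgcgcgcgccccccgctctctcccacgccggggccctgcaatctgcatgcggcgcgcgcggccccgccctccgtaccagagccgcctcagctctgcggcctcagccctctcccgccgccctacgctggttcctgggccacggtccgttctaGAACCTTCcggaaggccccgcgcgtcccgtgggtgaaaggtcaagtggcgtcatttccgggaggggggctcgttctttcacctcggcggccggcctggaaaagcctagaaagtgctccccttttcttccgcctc
Tomm20, GRCm38.p6 chr8:126945872-126946171, minus strand: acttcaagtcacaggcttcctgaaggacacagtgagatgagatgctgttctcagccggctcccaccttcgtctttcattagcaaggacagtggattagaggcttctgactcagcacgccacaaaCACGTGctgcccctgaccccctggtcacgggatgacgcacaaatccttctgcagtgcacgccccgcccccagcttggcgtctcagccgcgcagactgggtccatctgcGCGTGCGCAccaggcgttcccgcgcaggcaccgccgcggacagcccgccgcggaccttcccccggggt
Tomm70a, GRCm38.p6 chr16:57121464-57121763, plus strand: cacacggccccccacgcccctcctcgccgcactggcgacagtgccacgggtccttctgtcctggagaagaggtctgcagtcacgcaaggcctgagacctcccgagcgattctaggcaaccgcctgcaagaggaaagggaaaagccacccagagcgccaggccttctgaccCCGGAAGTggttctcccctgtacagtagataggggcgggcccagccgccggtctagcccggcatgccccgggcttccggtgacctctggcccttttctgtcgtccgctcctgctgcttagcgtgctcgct

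Among the 36 genes, windows were found for 32 (35 windows), and not for Tomm7, Tomm40l, Timm21 and Hspa9. Motifs were searched by their letters on both strands. NRF1, a factor that controls many nuclear genes of mitochondria, was searched as TGCGCANGC and occurred in 4 of the 35 windows, or 11.4%, against 4.16% of all 32851 windows. The GABPA motif CCGGAAGT, bound by another regulator of mitochondrial genes, occurred in 7 windows, or 20%, against 3.89%. The E-box CACGTG occurred in 17.1% of the windows of the import genes and in 7.15% of all windows. The core of the heat shock element, GAANNTTC, occurred in 8.57% against 7.86%, in windows of Hspd1, Hspe1 and Timm9. The Hspd1 and Hspe1 windows overlap and hold the same match. The YY1 motif AAGATGGC occurred in 1 window, that of Timm50, or 2.86% against 2.75%. The ERRalpha motif TCAAGGTCA occurred in 1 window, that of Timm8b, or 2.86% against 0.423%. The FoxO motif GTAAACA occurred in 0 of the 35 windows and in 3.65% of all, and the CCAAT box CCAAT in 31.4% against 37.4%. These counts describe letters in a window and do not show that a factor binds there.

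Values are log2 levels after RMA, a method that equalises the arrays and summarises each probe set. Differences are those of the knockout-labelled mean from the control mean (n = 4 per group), with standard errors (SE) from limma. The medians over all probe sets of the 8 arrays lay between 6.90 and 7.03. The Rictor probe set averaged 9.40 (SD 0.19) over the controls and 9.45 (SD 0.22) over the knockout-labelled arrays, so it does not show the deletion. Its position relative to the deleted part was not examined, and the groups are therefore called by their labels. On the leading principal component (35.8% of the variance), knockout-labelled array 1 (-0.31) lay beside controls 2 to 4 (-0.344 to -0.298) and control 1 lay between the groups (-0.0293). Both arrays are left out in turn below for the import genes, and the lists beside them were not refitted. All 7 hepatocyte markers were measured, and their mean level spanned 13.78 to 13.86 in controls and 13.83 to 13.84 in the knockout-labelled group.

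The import genes did not move as a block. The means of 25 were higher in the knockout-labelled livers and those of 11 lower, with a median log2 difference of 0.06. Over all genes tested the median was -0.02 and 43.1% had a higher mean. After Benjamini-Hochberg adjustment over the 21789 probe sets that name 1 gene none of the 36 genes passed, as was true of 0% of all genes (limma, threshold 0.05; the lowest adjusted p of an import gene was 0.140). Without adjustment 9 of the 36, or 25%, had a higher mean with a limma p under 0.05, against 3.84% of all genes. A lower mean with such a p was found for 1 gene, or 2.78%, against 6.61% of all genes. The 9 genes were Tomm7, Hspe1, Grpel1, Tomm20, Samm50, Tomm70a, Hspa9, Timm44 and Timm10, and the lower gene was Timmdc1. With the median of each array subtracted, 907 of all genes were higher and 814 lower at this p, against 766 and 1318 as deposited, and the import genes gave 9 and 0. The groups did not overlap in 5 genes, all higher (Tomm7, Tomm20, Tomm70a, Timm44 and Pmpca), against 1.81% of all genes that were higher without overlap. No import gene was lower without overlap, against 2.61% of all genes. Differences smaller than 0.1 in size were found for 19 of the 36 genes, and for 58.1% of all genes. The median moved with single arrays. It was 0.11 without control 1 and 0.03 without control 4, where 19 genes had a higher and 17 a lower mean. In whole liver, fewer cells of a type and less RNA per cell cannot be told apart.

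**Figure D1:**
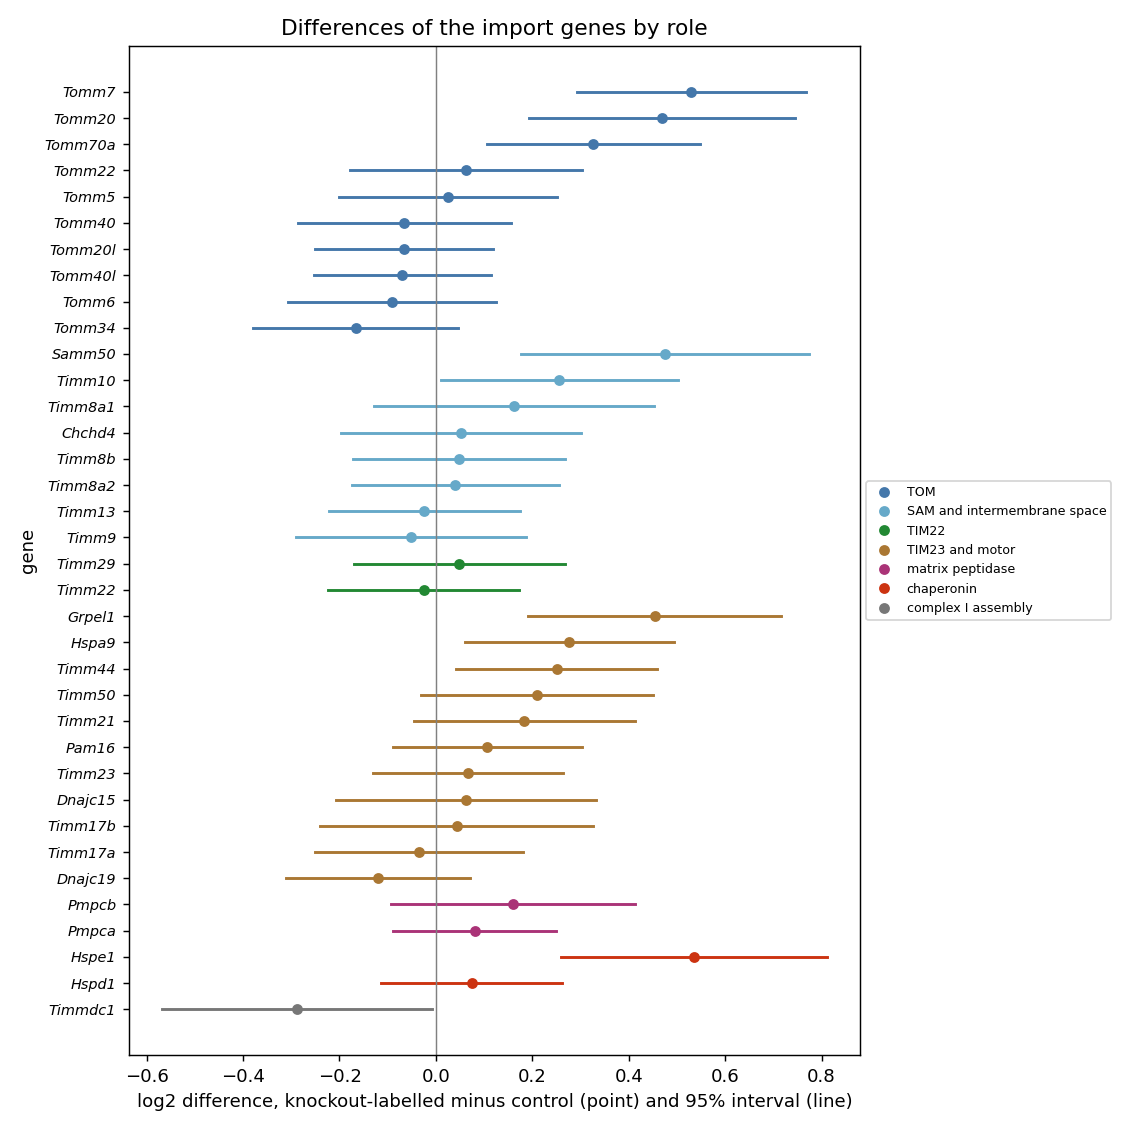
Log2 difference of each of the 36 genes, knockout-labelled minus control (points), with its 95% interval (lines), on the horizontal axis; genes are rows coloured by role, with n = 4 arrays per group. The highest differences, 0.53 for both Tomm7 and Hspe1, stand beside many genes of the same complexes whose intervals span 0.

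In the TOM complex, a few subunits had higher means while the channel itself did not. Tomm7, a small subunit that affects how tightly the complex is assembled, read 9.45, 9.37, 9.23 and 9.09 in controls and 9.60, 9.86, 9.90 and 9.90 on knockout-labelled arrays 1 to 4. Every knockout-labelled array lay above every control, by the narrowest margin for knockout-labelled array 1. The difference was 0.53 (SE 0.11; limma adjusted p = 0.140), a 1.44-fold higher mean.

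Tomm20, the receptor that binds presequences, read 9.71, 9.56, 9.27 and 9.23 in controls and 9.82, 9.77, 10.15 and 9.90 in the knockout-labelled group. The groups did not overlap here either, although control 1 came close to knockout-labelled array 2. The difference was 0.47 (SE 0.13; limma adjusted p = 0.224), and the second probe set of Tomm20 gave 0.45. Tomm70a, now called Tomm70, is the receptor for carriers and other proteins with internal signals. It read 10.04, 9.92, 10.02 and 10.01 in controls and 10.12, 10.23, 10.46 and 10.49 in the knockout-labelled group. The controls were close together, with an SD of 0.06, and all knockout-labelled arrays lay above them (0.33, SE 0.10; limma adjusted p = 0.276).

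The other TOM genes did not show this. Tomm40, the beta-barrel channel of the complex, read 9.82, 9.82, 9.80 and 9.53 in controls and 9.78, 9.76, 9.63 and 9.54 in the knockout-labelled group, so that the groups overlapped fully. Its difference was -0.07, with a 95% interval from -0.29 to 0.16. Tomm22, the central receptor that holds the complex together, read 9.65, 9.43, 9.44 and 9.20 against 9.64, 9.52, 9.45 and 9.35. In both groups array 1 was the highest and array 4 the lowest, and the difference was 0.06 (95% interval -0.18 to 0.30). The small subunits Tomm5 and Tomm6 differed by 0.02 and -0.09. The cytosolic factor Tomm34 had a lower mean (-0.17, SE 0.10), and its knockout-labelled arrays 2 to 4 lay below all controls. The paralogs Tomm40l and Tomm20l both differed by -0.07. Tomm20l was dim, with a mean of 6.45 in controls, below the median of the arrays.

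**Figure D2:**
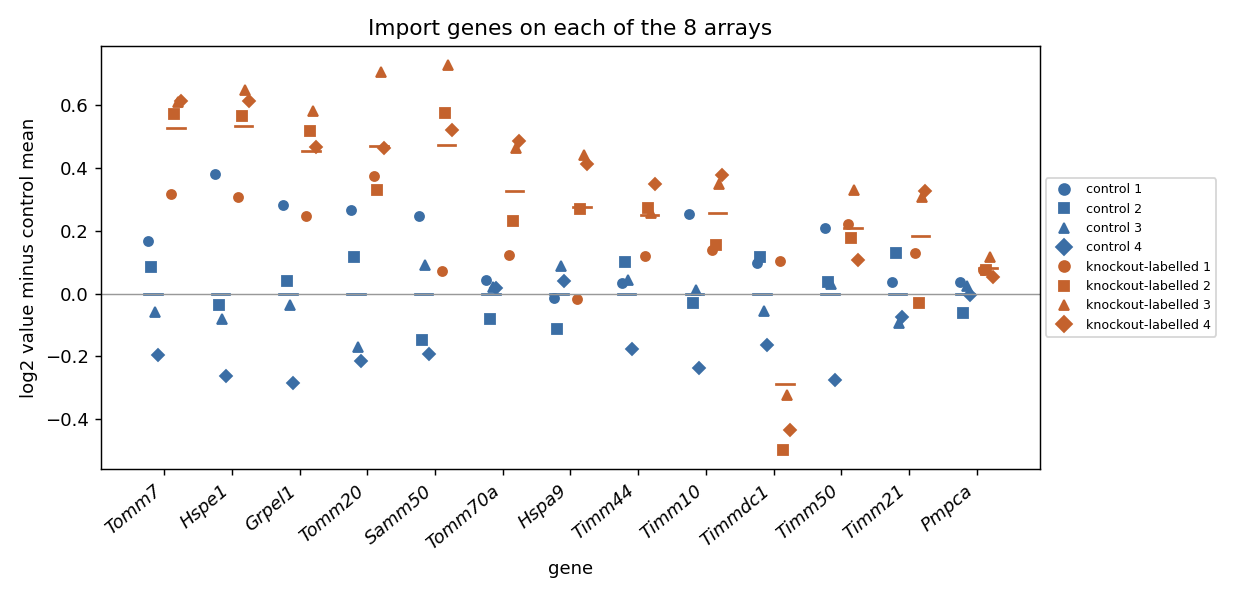
Values of 13 genes on each array, as the log2 value minus the control mean of the gene (vertical axis), for the 12 genes with the smallest p and for Pmpca; blue symbols are the 4 controls, orange symbols the 4 knockout-labelled arrays, and short bars the group means. In Hspe1, Grpel1 and Samm50 control 1 lies above knockout-labelled array 1, while the other arrays of the groups are apart.

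In the SAM complex and the intermembrane space, Samm50 had the largest difference and the small Tim genes mostly differed little. Samm50, the channel that inserts beta-barrels such as Tomm40, read 12.11, 11.72, 11.96 and 11.67 in controls and 11.94, 12.44, 12.59 and 12.39 in the knockout-labelled group. Knockout-labelled arrays 2 to 4 lay above all controls, and array 1 lay below controls 1 and 3. The difference was 0.47 (SE 0.14; limma adjusted p = 0.241). Timm10, a partner of Timm9 in the hexamer that escorts carriers across the intermembrane space, read 8.62, 8.33, 8.37 and 8.13 against 8.50, 8.52, 8.71 and 8.74. Control 1 lay within the knockout-labelled range, and the difference was 0.26 (SE 0.11; limma adjusted p = 0.436). Timm9 itself differed by -0.05, with a 95% interval from -0.29 to 0.19. Of the other small Tim genes Timm8a1 differed by 0.16, Timm8b by 0.05, Timm8a2 by 0.04 and Timm13 by -0.02. Timm8a2 was dim, with a control mean of 4.81. Chchd4, the oxidoreductase that traps small Tim proteins by forming their disulfide bonds, differed by 0.05 (SE 0.11). The TIM22 genes, Timm22 for the carrier channel and Timm29, differed by -0.03 and 0.05.

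In the TIM23 pathway the higher means with an unadjusted p under 0.05 were those of Grpel1, Hspa9 and Timm44, which all belong to the motor. Grpel1, the nucleotide exchange factor of mortalin, read 11.02, 10.78, 10.71 and 10.46 in controls and 10.99, 11.26, 11.33 and 11.21 in the knockout-labelled group. Array 1 of the 2 groups read nearly the same, and the other arrays were apart (0.45, SE 0.12; limma adjusted p = 0.219). Hspa9, which encodes mortalin, read 12.22, 12.12, 12.32 and 12.27 against 12.22, 12.50, 12.68 and 12.65. Knockout-labelled array 1 was inside the control range and the other 3 lay above it (0.28, SE 0.10; limma adjusted p = 0.341).

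Timm44, which tethers mortalin to the channel, read 8.78, 8.85, 8.79 and 8.57 in controls and 8.86, 9.02, 9.002 and 9.10 in the knockout-labelled group. The groups did not overlap, although control 2 and knockout-labelled array 1 were close (0.25, SE 0.10; limma adjusted p = 0.367). Timm50, the receptor of TIM23, read 9.09, 8.92, 8.91 and 8.60 against 9.10, 9.06, 9.21 and 8.99. Control 4 was the lowest array, and control 1 lay among the knockout-labelled values (0.21, SE 0.11; limma adjusted p = 0.520). Timm21, which links TIM23 to the respiratory chain, read 9.33, 9.42, 9.20 and 9.21 against 9.42, 9.26, 9.60 and 9.62, with overlapping groups (0.18, SE 0.11; limma adjusted p = 0.556).

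Timm23, the channel subunit, read 11.996, 11.97, 11.71 and 11.70 in controls and 11.99, 11.82, 11.94 and 11.88 in the knockout-labelled group. All knockout-labelled arrays lay inside the control range, and the difference was 0.07 (95% interval -0.13 to 0.26). Its 4 probe sets gave from 0.07 to 0.11, and 2 of them held identical values. The other channel subunits, Timm17a and Timm17b, differed by -0.04 and 0.04. The J-domain proteins of the motor, Dnajc19 and Dnajc15, differed by -0.12 (SE 0.09) and 0.06 (SE 0.12), and Pam16, which holds the J-domain in check, by 0.11 (SE 0.09). Of the 11 genes of TIM23 and its motor, 9 had a higher mean, with a median of 0.11.

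The peptidase genes had slightly higher means. Pmpca, the subunit that recognises presequences, read 10.64, 10.54, 10.63 and 10.60 in controls and 10.68, 10.68, 10.72 and 10.66 in the knockout-labelled group. The groups did not overlap because both were very tight, with SDs of 0.04 and 0.03, and the difference was 0.08 (SE 0.08; limma adjusted p = 0.768). Exact two-sided permutation gave p = 0.0286, the smallest that 4 arrays against 4 allow. Pmpcb, the catalytic subunit, differed by 0.16 (SE 0.12).

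The chaperonin genes Hspe1 and Hspd1 are neighbours in the genome. Hspe1 encodes Hsp10, the lid of the chaperonin, and read 12.07, 11.65, 11.61 and 11.43 in controls and 11.998, 12.26, 12.34 and 12.31 in the knockout-labelled group. Control 1 lay above knockout-labelled array 1, and the remaining arrays were apart (0.53, SE 0.13; 95% interval 0.26 to 0.81; limma adjusted p = 0.150). Hspd1 encodes Hsp60, the barrel, and read 12.58, 12.42, 12.61 and 12.62 against 12.42, 12.62, 12.75 and 12.74. Its difference was 0.07, with a 95% interval from -0.11 to 0.26. The second probe set of Hspe1 gave the same size of difference as the first, with a 95% interval from 0.26 to 0.81, while the second probe set of Hspd1 gave -0.09 (95% interval -0.25 to 0.06). The sign of Hspd1 is therefore not settled, and the contrast between the genes was not tested. Processed copies of both genes exist in the mouse genome, and which copies each probe set reads was not examined.

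**Figure D3:**
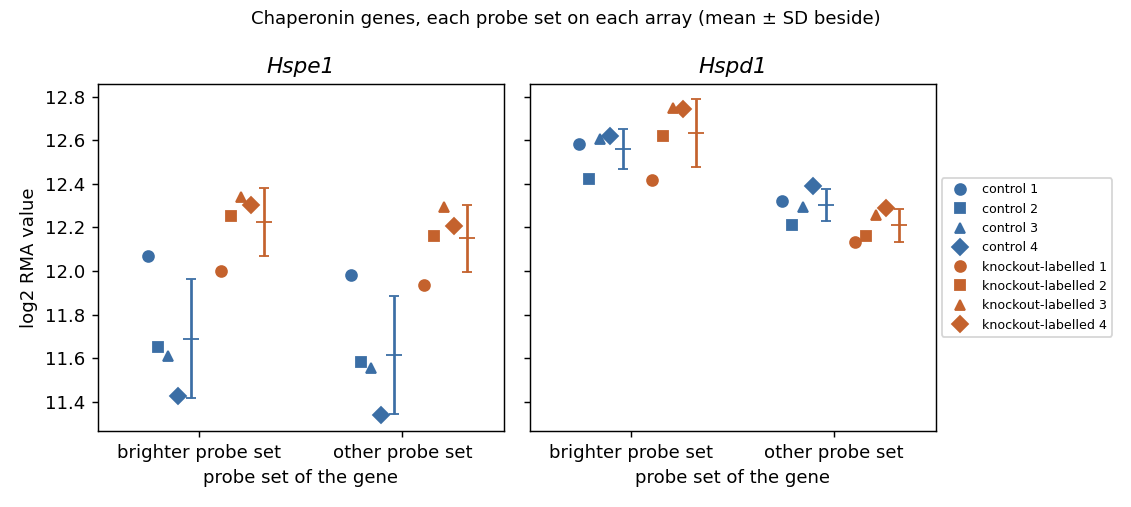
Log2 RMA values of Hspe1 and Hspd1 on each array (vertical axis), for the brighter and the other probe set of each gene (horizontal axis); blue symbols are controls, orange symbols knockout-labelled arrays, and the bars beside them mean ± SD (n = 4). Both Hspe1 probe sets place knockout-labelled arrays 2 to 4 above all controls, whereas the 2 Hspd1 probe sets differ in sign (0.07 and -0.09).

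RefSeq (GRCm38.p6) gives Hspd1 2 starts on chromosome 1, of which 1 is head to head with Hspe1. That start of Hspd1, on the minus strand, lies 216 bases from the start of Hspe1 on the plus strand, and the windows of these starts share 285 bases. The stretch printed for Hspe1 thus holds most of that Hspd1 window, read from the other strand. The window of the other Hspd1 start shares 4 bases with it. The heat shock element core of the printed stretch lies 84 to 77 bases before the start of Hspe1. Heat shock elements are bound by Hsf1, the regulator of cytosolic chaperone genes. In the list of cytosolic heat shock and chaperonin genes 16 of 19 were measured, 9 with a higher and 7 with a lower mean, and 0 passed. Without adjustment 5, or 31.2%, had a higher mean with a limma p under 0.05 (3.84% of all genes) and 0 a lower one (6.61%). The smallest p-values belonged to Hspb1, a small heat shock protein (0.63, SE 0.21), and to Tcp1 and Cct8, subunits of the cytosolic chaperonin (0.31, SE 0.11, and 0.34, SE 0.12). The 5 also held Cct2 (0.18, SE 0.07) and Hsp90aa1 (0.22, SE 0.10). The remaining cytosolic chaperonin subunits went both ways. Cct5 and Cct6a differed by 0.14 and 0.12, and Cct4, Cct7 and Cct3 by -0.21 (SE 0.11), -0.08 and -0.02. Of the other heat shock genes of the list, Dnaja1 differed by 0.16, Hspa1a by 0.05 and Hspa8 by -0.03. Hsph1 and Dnajb1 each differed by -0.04, and Bag3 by -0.32 (SE 0.18). A part of Hsf1 in these differences was not tested.

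Timmdc1 carries a Timm name but is a membrane factor for the assembly of respiratory complex I. It was the gene with the lowest difference of the 36. It read 11.09, 11.11, 10.94 and 10.83 in controls and 11.09, 10.49, 10.67 and 10.55 in the knockout-labelled group. Knockout-labelled array 1 lay at the top of the control range, and the other 3 arrays lay below every control (-0.29, SE 0.13; limma adjusted p = 0.438).

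Whether these differences passed changed with the arrays numbered 1. Of the 9 genes with a higher mean and an unadjusted p under 0.05, knockout-labelled array 1 was the lowest of its group in 8, and control 1 was the highest control in 7. Over all genes these 2 arrays took those places in 31.9% and 26.4%. Knockout-labelled arrays 2 to 4 were all above every control in 8 of the 9, and array 1 was above every control in 4. The 9 genes were selected on these same arrays, so such counts are partly built in. The shares among all genes with a higher mean and such a p were not computed. Without knockout-labelled array 1, 6 import genes passed as higher, against 1.1% of all genes, and Timmdc1 passed as lower, against 3.3%. The 6 were Tomm7, Hspe1, Grpel1, Samm50, Tomm70a and Hspa9, with differences of 0.60, 0.61, 0.52, 0.61, 0.39 and 0.37 (limma adjusted p = 0.0100, 0.0187, 0.0295, 0.0113, 0.0361 and 0.0183). Timmdc1 then differed by -0.42 (limma adjusted p = 0.0305).

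Without control 1, Tomm7 and Hspe1 passed (0.59 and 0.66; limma adjusted p = 0.0437 and 0.0316), against 0.231% of all genes that were higher. None of the 36 passed as lower there, against 0.0652%. Array weights were lowest, at 0.467, for knockout-labelled array 1. With them 7 passed as higher, against 1.31% of all genes, and 0 as lower, against 2.23%. They were the 6 genes above and Tomm20 (0.49; limma adjusted p = 0.0398). In a fit that dropped both of these arrays the same 7 genes passed as higher, against 2.39%, and Timmdc1 passed as lower, against 5.08%. Hspe1 then differed by 0.74 and Samm50 by 0.69 (limma adjusted p = 0.000193 and 0.000771). Over the 18 alternatives run for each, the adjusted p of Hspe1 ranged from 0.000193 to 0.601 and that of Samm50 from 0.000771 to 0.640. The 0.601 came from exact permutation, where Tomm7 had the same adjusted p at the smallest possible p of 0.0286. No gene could thus pass by that test, and the highest limma adjusted p of Hspe1 was 0.536. The arrays numbered 1 were singled out after their position was seen, and array weights give less to an array far from its own group. Fits with array weights or without these arrays therefore add no independent test. Leaving out any other single array let 0 import genes pass (limma), with 6 to 10 of them at an unadjusted p under 0.05. Over all genes 0 passed in these fits, and 1246 to 1824 had such a p.

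**Figure D4:**
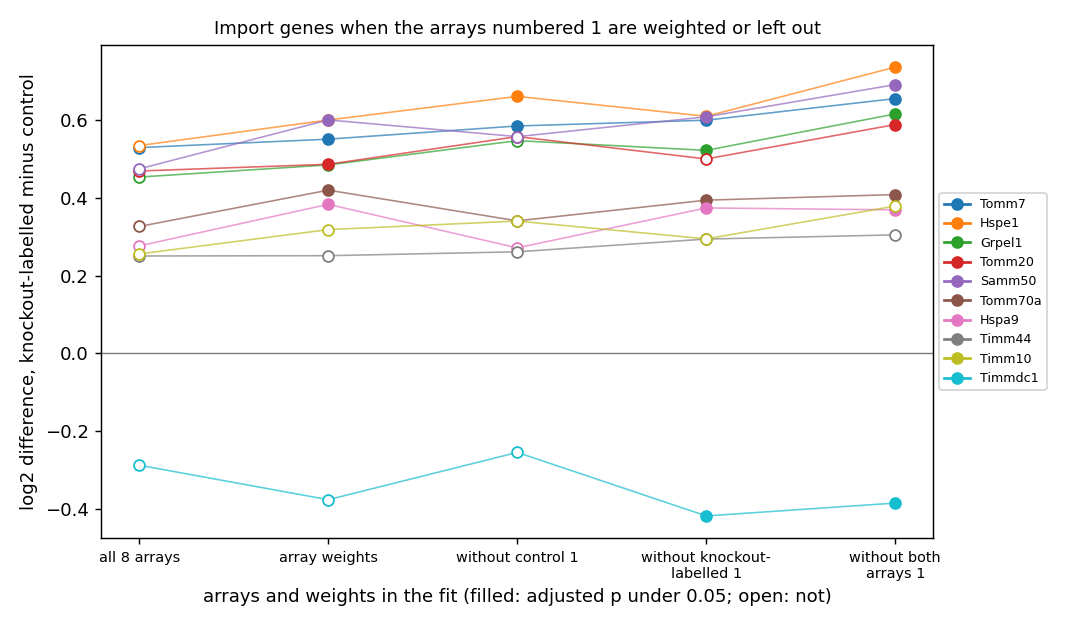
Log2 difference (vertical axis) of the 10 genes with an unadjusted p under 0.05, fitted with all 8 arrays, with array weights, and without 1 or both of the arrays numbered 1 (horizontal axis); filled points have a limma adjusted p under 0.05, open points do not, and lines join the values of a gene. All points are open with all 8 arrays, and 7 genes above 0 are filled with array weights.

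Within the groups, the import genes also differed by array. Control 1 was the highest control in 21 of the 36 genes and control 4 the lowest in 24, while over all genes these arrays took those places in 26.4% and 29.4%. Averaged over the 36 genes, controls 1 to 4 lay 0.11, 0.04, -0.02 and -0.13 from the control mean. Knockout-labelled arrays 1 to 4 lay at 0.09, 0.08, 0.17 and 0.10. Control 1 thus lay within the range of the knockout-labelled group, and the average separates controls 2 to 4 only. Markers of other cells were compared on the same arrays. The Kupffer cell or macrophage list had 6 of 7 members with a higher mean. So had the hepatocyte list, with differences from -0.13 to 0.04. The mean level of the macrophage list spanned 9.12 to 9.89 in controls and 9.35 to 10.33 in the knockout-labelled group. Knockout-labelled array 4 was the highest of its group in every member, so the 10.33 is its level. Marco, for example, read 7.27, 7.31, 6.79 and 8.58 on knockout-labelled arrays 1 to 4. Means of the list without that array were not computed. All 4 measured lymphocyte markers had a lower mean, with levels of 6.20 to 6.61 in controls and 6.11 to 6.35 in the knockout-labelled group. Of these, 3 were dim, below the level of the median gene, and over all genes only 43.1% had a higher mean. The endothelial and stellate lists each had 3 of 6 members higher. The mean levels of the measured cholangiocyte markers (4 of 5), pancreas markers (2 of 4) and the erythroid marker Alas2 overlapped between the groups. Single cholangiocyte markers went both ways. Epcam and Sox9 had lower means (-0.46, SE 0.17, and -0.44, SE 0.25), and Krt7 and Krt19 higher ones (0.11 and 0.02). Lower with an unadjusted limma p under 0.05 were Epcam and, among the lymphocyte markers, Cd79a. Each is 1 of 4 in its list, or 25%, against 6.61% of all genes. Of the measured cholangiocyte markers 3, and of the pancreas markers 2, were also below the level of the median gene. The part of the cells named by these markers in the differences was not tested.

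Genes that work beside the import machinery were taken from lists chosen by function. Of the list of presequence and intermembrane space machinery 13 of 14 genes were measured, 6 with a higher and 7 with a lower mean, and a median of -0.01. An unadjusted p under 0.05 was found for 3 of the 13, or 23.1%, as lower (6.61% of all genes) and for 0 as higher (3.84%). The 3 were Xpnpep3 (-0.40, SE 0.13) and Mipep (-0.32, SE 0.13), which trim imported proteins further, and Romo1, a small inner membrane protein (-0.31, SE 0.12). The limma adjusted p-values were 0.291, 0.384 and 0.389. The metaxins Mtx1, Mtx2 and Mtx3, partners of Samm50, differed by 0.07, 0.10 and 0.24. Of the matrix chaperones and quality control genes 15 of 16 were measured, 9 with a higher and 6 with a lower mean, and a median of 0.0014. An unadjusted limma p under 0.05 was found for 2 of the 15, or 13.3%, as higher (3.84% of all genes). For 1, or 6.67%, it was found as lower (6.61%). Lonp1 and Clpx, an AAA+ protease and the unfoldase of the ClpXP protease, had higher means (0.29, SE 0.11, and 0.25, SE 0.11), and the inner membrane protease gene Afg3l2 a lower one (-0.18, SE 0.08). Their limma adjusted p-values were 0.364, 0.419 and 0.426. Grpel2, the paralog of Grpel1, differed by 0.0005 (SE 0.09).

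Beside other mitochondrial genes the share of higher import genes was not the largest. Of 34 complex I subunit genes 11, or 32.4%, had a higher mean with an unadjusted limma p under 0.05, against 3.84% of all genes, and 0 a lower one. Their median was 0.14, and the smallest p-values were those of Ndufa1 (0.60, SE 0.13), Ndufa4 (0.45, SE 0.12) and Ndufa5 (0.54, SE 0.15). Of 77 genes of the mitochondrial ribosome 12, or 15.6%, were higher by this measure and 4, or 5.19%, lower, against 3.84% and 6.61% of all genes. Their median was 0.06 and their differences ran from -0.43 to 0.42, with the smallest p-values for Mrpl54 (0.42, SE 0.11), Mrps21 (0.32, SE 0.10) and Mrpl24 (0.30, SE 0.09). The difference between the lists was not tested, and all of them rest on the same 8 arrays.

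**Figure D5:**
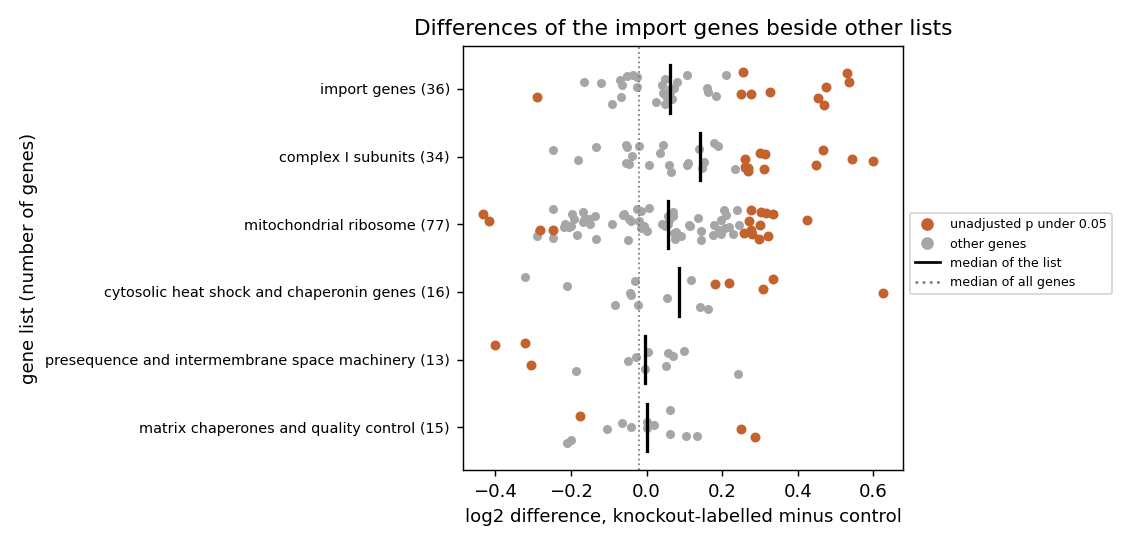
Log2 difference of each gene (horizontal axis), knockout-labelled minus control, in 6 gene lists (rows, with the number of genes); orange points have an unadjusted limma p under 0.05, black lines are the medians of the lists and the dotted line the median of all genes. The import genes lie around a median of 0.06 with 9 orange points above 0.2, and the complex I subunits around 0.14.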

How the data were processed

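Liver RNA of 8 mice was hybridised to 1-colour Affymetrix Mouse Gene 1.0 ST arrays. The deposited table holds RMA values, taken as log2 from their range; the submitters' processing notes name RMA, Affymetrix Expression Console and Partek. Its build and probe intensities were not used here. Of 35556 probe sets, 21789 name 1 gene and were tested; 1621 name several, among them 1 shared by Timm10b and Dnhd1. Symbols were updated by Entrez identifier (21698 matched). These 21789 were fitted with limma 3.58.1 in R 4.3.3 (lmFit, eBayes with trend), two-sided, with Benjamini-Hochberg adjustment over the 21789; a gene counts by its brightest probe set. The procedure was tested on simulated data. The members and lists were chosen with earlier results of these data known; values on every array are given for the 12 members with the smallest p, those without overlap and 10 fixed genes, and the 3 smallest p per other list of mitochondrial or chaperone genes are named. The NRF1 and heat shock motifs were shortened after a search with longer forms had been seen. Same-numbered arrays did not deviate together (correlations from -0.125 to 0.0738). The number of arrays limits precision, and the labels do not say whether mice shared litters. Alternatives changed weights, trend, robustness, normalization, centring, brightness filter, probe sets, block, test and arrays.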

Additional observations from a re-analysis of the deposited data

Results flagged for a closer look

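In 72 groups of 4 arrays (36 genes in 2 groups) a single array stood far from the others in 3, where chance alone flags about 1 in 20. Tomm7 read 9.60 on knockout-labelled array 1, below the 9.86 to 9.90 of the other arrays of that group. Tomm40 read 9.53 on control array 4, against 9.80 to 9.82 on the other controls. Timm9 read 9.09 on control array 2, above the 8.89 to 8.92 of the other controls.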

How the results depend on the processing

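Of the 36 genes none passed with all 8 arrays at equal weights, and the number that passed turned on the first array of each group: 7 with array weights, 8 without both arrays numbered 1, and 0 to 7 with single arrays left out. Over all genes these counts were 707, 1489 and 0 to 877. Import genes with an unadjusted p under 0.05 numbered 10 in the main comparison, 5 by exact permutation and 6 to 11 with single arrays left out. Over all 19938 genes these counts were 2084, 881 and 1246 to 3574. Without knockout-labelled array 4 there were 6 import genes and 1450 of all genes. The median difference of the import genes was 0.06, and 0.03 to 0.11 with single arrays left out. With the replicate number as a block 0 genes passed, and the numbers were not treated as pairs. In that fit 9 import genes, and 2102 of all genes, had an unadjusted p under 0.05. Median centring, quantile normalization, robust variance, no trend, the brightness filter (34 of the 36 genes kept) and the mean of a gene's probe sets let 0 genes pass. Signs near 0 turned: Chchd4 to -0.0094 with array weights and -0.017 without both arrays numbered 1, Timm8a2 to -0.037 and -0.028 in these fits, Timm17a to 0.050 and Timm29 to -0.029 without both arrays, and Hspd1 to -0.010 as a mean of its probe sets. With single arrays left out Chchd4 ranged from -0.040 to 0.13, Dnajc15 from -0.0079 to 0.16, Timm13 from -0.066 to 0.016, Timm17a from -0.087 to 0.016, Timm17b from -0.050 to 0.16, Timm22 from -0.081 to 0.014, Timm8a2 from -0.050 to 0.12, Timm8b from -0.0076 to 0.11, Timm9 from -0.13 to 0.016, Tomm22 from -0.014 to 0.14 and Tomm5 from -0.039 to 0.10. The cause was not tested.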

Other observations

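The probe set shared by Timm10b and Dnhd1, which names 2 genes and was therefore not tested, averaged 7.14 (SD 0.06) over the controls and 7.12 (SD 0.06) over the knockout-labelled arrays.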
